A study of Homo sapiens with 3 samples.

Results

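DEAD and DEAH box RNA helicases were taken as the genes whose symbol starts with DDX or DHX followed by a digit, which gave 44 of the 9431 genes in the table and 123 of its 31565 polyadenylation sites (pAs). The libraries hold nuclear RNA of RKO, an established and poorly differentiated colon carcinoma cell line. The cells were harvested at 0 h, labelled as baseline, and after UV treatment with 0.5 or 2 h of recovery, and each time point is 1 library with no replicate. The 3 groups share the cell line, the medium and the nuclear RNA preparation, and the labels give no further agent and no UV dose. The 3ʹREADS method sequences fragments that carry a poly(A) tail, so that a read marks the pA that was used, and the table counts 433093, 501600 and 437491 reads at 0, 0.5 and 2 h. Because the libraries have no replicates, every test below compares the reads of 2 libraries, not of 2 conditions, and every interval covers counting error only.

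DEAD and DEAH box proteins share a pair of RecA-like domains and use ATP to unwind short RNA duplexes, to displace bound proteins or to clamp RNA. DEAD box members mostly act locally on a duplex with the help of partner proteins, whereas DEAH box members translocate along RNA and are often switched on by G-patch proteins. Different members serve ribosome assembly in the nucleolus, the spliceosome, mRNA export, translation, mitochondrial RNA and the sensing of foreign RNA, and several act where transcription and splicing meet at the nascent transcript.

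Of the 44 symbols, 43 are current, and DDX26B is an older symbol of INTS6L, which lacks a helicase domain but meets the naming rule. The genes were uneven in depth. They held 2340, 2470 and 1890 reads at 0, 0.5 and 2 h, or 5401, 4922 and 4315 RPM, the unit of the deposited values, in which reads are scaled to the library total and 1 read is worth 2.31, 1.99 and 2.28 RPM. DDX24 alone took 48.5% of these reads and DHX33 a further 16.6%, and the 10 most read genes together held 89.6%. The median was 17 reads per gene over the 3 libraries, beside 18 for all genes, and 24 of the 44 genes had under 30. Reads were present at every time point for 29 genes, and 15 were at 0 in at least 1 library (4 genes at 0 h, 10 at 0.5 h and 4 at 2 h). An RPM value is a share of a library, so that less RNA of a gene per nucleus and more RNA of other genes cannot be told apart. Of 8 epithelial markers, 3 had rows (EPCAM, KRT8 and KRT18, with 7, 6 and 0, with 4, 4 and 26, and with 2, 3 and 4 reads at 0, 0.5 and 2 h), and none of 6 fibroblast or 5 blood cell markers had one.

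**Figure D1:**
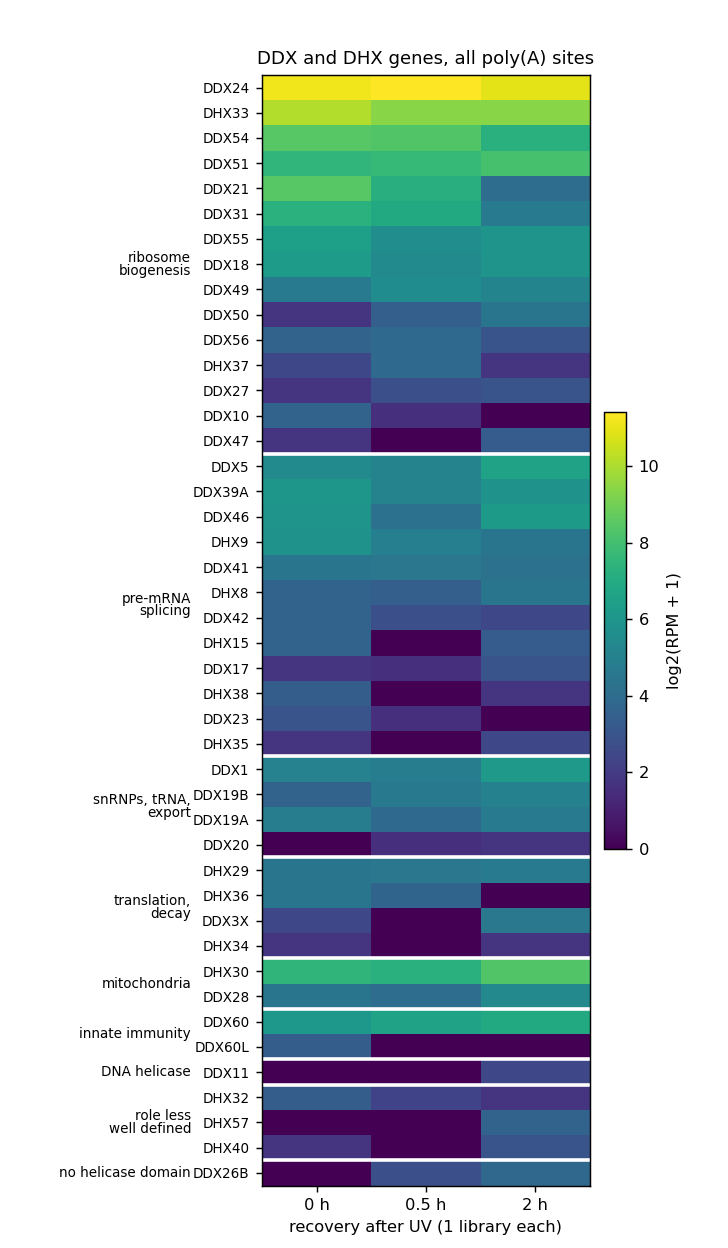
Level of each of the 44 genes at 0, 0.5 and 2 h after UV, as log2(RPM + 1) over all of its pAs, with genes ordered by role and then by reads and white lines between roles. DDX24 and DHX33 stand at the top of the scale at every time point, while 15 genes reach 0 in at least 1 library.

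The first comparison asked which helicase genes changed in total level between time points, counting the reads of all pA types. A gene was called when its reads, set against all others in the table, gave by Fisher's exact test an adjusted p (Benjamini-Hochberg, over all genes tested) under 0.05 and the log2 ratio of RPM, with 0.1 RPM added to each value, was beyond 1 or -1. In the 0–0.5 h window no helicase gene rose and 2 of 42 tested fell (DDX21 and DDX46), where 2.15% of all genes tested rose and 4.36% fell. In the 0.5–2 h window 5 of 43 rose (DDX1, DDX3X, DDX5, DDX46 and DHX30) and 3 fell (DDX21, DDX31 and DDX54), against 5.37% and 4.83% of all genes. At 2 h over 0 h 1 of 44 rose (DDX5) and 4 fell (DDX21, DDX31, DDX54 and DHX36), beside 4.84% and 7.55% of all genes. The first 2 windows share the 0.5 h library, so a high or low value there enters both. The comparison of 2 h over 0 h uses the 0 h and 2 h libraries again, so its calls are not separate evidence.

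The 15 ribosome biogenesis helicases held 2035, 2203 and 1449 reads at 0, 0.5 and 2 h, most of the reads of the family. Most of these were of DDX24 (1012, 1380 and 859) and DHX33 (476, 336 and 299), so the sums mainly follow DDX24. None of the 15 rose in any window, where 2.15%, 5.37% and 4.84% of all genes rose. Those that fell numbered 1 in the 0–0.5 h window (DDX21), 3 in the 0.5–2 h window and 3 at 2 h over 0 h. The 3 were DDX21, DDX31 and DDX54 both times, and both comparisons use the same 2 h library. Of all genes 4.36%, 4.83% and 7.55% fell in these windows. Among the 9 of them with at least 30 reads in all, the median log2 ratio was -0.32, -0.42 and -0.52 in these windows, while the median over all genes with at least 30 reads was -0.10, -0.06 and -0.15.

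DDX21, a nucleolar helicase that binds ribosomal and small nucleolar RNAs and also acts in transcription, fell in every window, and at 2 h over 0 h by more than any other helicase gene with at least 30 reads. It had 151, 74 and 7 reads at 0, 0.5 and 2 h, which is 349, 147 and 15.98 RPM. Each step was down, and the 95% Poisson intervals of the 3 levels (295 to 409, 116 to 185 and 6.42 to 32.9 RPM) did not overlap. The level was 2.36-fold lower at 0.5 h than at 0 h (95% interval 1.78 to 3.17, adjusted p = 2.96e-08, Fisher's exact test) and 9.23-fold lower at 2 h than at 0.5 h (4.26 to 23.7, adjusted p = 1.62e-11). Over the full 2 h it was 21.8-fold lower (10.3 to 55.2). Nearly all of its reads came from 1 pA in the 3ʹ-most exon, on the plus strand of chromosome 10 at 70744824 (hg19), with 149, 74 and 7 reads.

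DDX31, another nucleolar helicase of large-subunit assembly, kept most of its level at 0.5 h and was low at 2 h, with 67, 62 and 11 reads or 155, 124 and 25.1 RPM. It was 4.92-fold lower at 2 h than at 0.5 h (95% interval 2.57 to 10.4, adjusted p = 9.05e-07, Fisher's exact test) and 6.16-fold lower than at 0 h (3.23 to 12.9). Both of its main pAs in the 3ʹ-most exon were lowest at 2 h, the distal with 41, 29 and 3 reads and the proximal with 24, 27 and 5.

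DDX54, a nucleolar helicase that also binds nuclear receptors, was likewise lowest at 2 h, by a smaller ratio. It had 153, 159 and 67 reads, or 353, 317 and 153 RPM, and was 2.07-fold lower at 2 h than at 0.5 h (95% interval 1.55 to 2.80, adjusted p = 7.81e-06, Fisher's exact test) and 2.31-fold lower than at 0 h (1.72 to 3.12). All but 1 of its reads stood at 1 pA on the minus strand of chromosome 12 at 113596301.

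The most read members moved less. DDX24, linked to the processing of large-subunit ribosomal RNA, had 1012, 1380 and 859 reads (2336, 2750 and 1961 RPM), highest at 0.5 h. Its log2 ratios of 0.24, -0.49 and -0.25 in the 0–0.5 h window, the 0.5–2 h window and 2 h over 0 h all had adjusted p values under 0.05 by Fisher's exact test (0.0017, 3.92e-13 and 0.0022) but stayed inside the minimum of 1. DHX33, a DEAH box helicase of ribosomal RNA synthesis, had 476, 336 and 299 reads, all at 1 pA on the minus strand of chromosome 17 at 5344237, and was 1.64-fold lower at 0.5 h than at 0 h (adjusted p = 2.16e-10, Fisher's exact test) and 1.61-fold lower at 2 h than at 0 h (adjusted p = 3.14e-09), under the minimum ratio. The levels of DHX33 at 2 h and 0.5 h, 683 and 670 RPM, lay within each other's 95% intervals (607 to 765 and 600 to 745 RPM).

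DDX51, which acts in maturation of the large-subunit ribosomal RNA, had its highest count at 2 h, with 80, 100 and 119 reads. Its log2 ratio at 2 h over 0 h was 0.56 (adjusted p = 0.0453, Fisher's exact test), under the minimum of 1. DDX55 and DDX18, also of the large subunit, had 37, 24 and 26 reads and 33, 22 and 26 reads, and neither passed in any window. The other 7 of the group (DDX49, DDX50, DDX56, DHX37, DDX27, DDX10 and DDX47) had between 5 and 49 reads in all and none passed. DDX10, of the small subunit, was at 5, 1 and 0 reads, and DDX47, of the same subunit, at 1, 0 and 4.

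**Figure D2:**
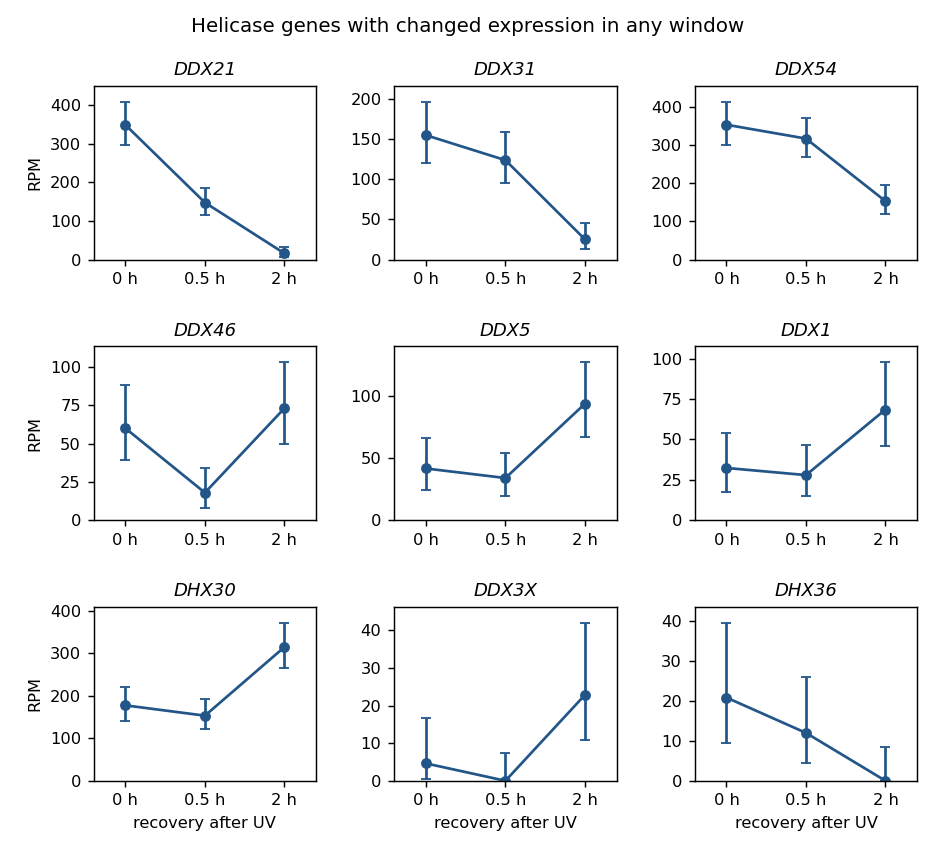
RPM at 0, 0.5 and 2 h after UV for the 9 genes called in any window, with bars for the 95% Poisson interval of each library and lines that join the libraries. DDX21, DDX31 and DDX54 were lowest at 2 h, DDX46 was low at 0.5 h, and DDX5, DDX1, DHX30 and DDX3X were highest at 2 h.

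The 12 splicing helicases held 129, 79 and 136 reads, with the lowest sum at 0.5 h. In the 0–0.5 h window 11 of the 12 had a log2 ratio below 0, and 4 of these had at least 30 reads in all. A ratio below 0 was found in 29 of the 42 helicase genes tested and in 4898 of 8804 over all genes. DDX17, with 1 read at both times, and DHX8, with 5 at both, were below 0 only because the 0.5 h library is larger. Of the 12, DDX46 passed. DDX46, the human counterpart of yeast Prp5 that acts when U2 snRNP joins the branch site, had 26, 9 and 32 reads, or 60.0, 17.9 and 73.1 RPM. The 0.5 h library was the low one. DDX46 was 3.35-fold lower at 0.5 h than at 0 h (95% interval 1.52 to 8.12, adjusted p = 0.0147, Fisher's exact test) and 4.07-fold higher at 2 h than at 0.5 h (1.90 to 9.70, adjusted p = 9.30e-04). Since these ratios share the 0.5 h library of 9 reads, they are not separate evidence.

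DDX5, also known as p68, a transcriptional coregulator and splicing helicase, had close levels in the first 2 libraries and a higher one at 2 h. It had 18, 17 and 41 reads, or 41.5, 33.9 and 93.6 RPM. The level at 2 h was 2.76-fold that at 0.5 h (95% interval 1.54 to 5.19, adjusted p = 0.0040, Fisher's exact test) and 2.25-fold that at 0 h (1.27 to 4.17, adjusted p = 0.0277). With reads of the 3ʹ-most exon alone the log2 ratio at 2 h over 0 h was 0.90 (adjusted p = 0.123, Fisher's exact test), which did not pass.

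No other splicing helicase was called. DDX39A, a close relative of the export and splicing factor DDX39B, had 28, 17 and 25 reads. DHX9, or RNA helicase A, had 24, 15 and 9 and was 2.70-fold lower at 2 h than at 0 h (95% interval 1.21 to 6.59), which missed the threshold (adjusted p = 0.0524, Fisher's exact test) but passed when genes with under 10 reads were left out or 3ʹ-most-exon reads alone were counted. The remaining 8 (DDX41, DHX8, DDX42, DHX15, DDX17, DHX38, DDX23 and DHX35) had between 3 and 28 reads in all. Of these, DHX15, the disassembly helicase of the spliceosome, was at 5, 0 and 4 reads, DHX38, of the second splicing step, was at 4, 0 and 1, DDX23, which helps to release U1 snRNP from the 5ʹ splice site, was at 3, 1 and 0, and DHX35, found in spliceosomes, was at 1, 0 and 2. A count of 0 allows a level of up to 6.92, 5.98 and 6.85 RPM (3 reads) at 0, 0.5 and 2 h, so the absence of these genes at a time point was not detectable at this depth.

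Outside these groups, DHX30 had the most reads. DHX30, needed for assembly of the mitochondrial ribosome, had 77, 77 and 138 reads, or 178, 153 and 315 RPM, and was 2.05-fold higher at 2 h than at 0.5 h (95% interval 1.54 to 2.75, adjusted p = 7.89e-06, Fisher's exact test). Against 0 h it was 1.77-fold higher (1.33 to 2.37, adjusted p = 7.60e-04, Fisher's exact test), below the minimum ratio. DDX28, the other helicase of the mitochondrial ribosome, had 9, 8 and 18 reads and did not pass.

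DDX1, part of the tRNA ligase complex, had 14, 14 and 30 reads, all at 1 pA on the plus strand of chromosome 2 at 15771225. It was 2.45-fold higher at 2 h than at 0.5 h (95% interval 1.26 to 5.01, adjusted p = 0.0405, Fisher's exact test). DDX19A and DDX19B, paralogs that release export factors from mRNA at the nuclear pore, had 12, 7 and 11 reads and 5, 12 and 14 reads, and DDX20, of the SMN complex that builds snRNPs, had 0, 1 and 1. DDX19A and DDX19B are neighbouring genes of near-identical sequence, and DDX60 and DDX60L, like DDX21 and DDX50, are neighbouring paralogs. No helicase pA was listed under a second gene, but how the authors handled reads that fit both copies is not given in the sources used here, so values of such pairs and of DDX11, which has near copies elsewhere, are uncertain.

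Among the translation and decay helicases DDX3X and DHX36 were called, both on few reads. DDX3X, a helicase of translation initiation, had 2, 0 and 10 reads, and the exact 95% interval of its ratio at 2 h over 0.5 h began at 2.57-fold (adjusted p = 0.0058, Fisher's exact test). Only 1 of the 10 reads lay in the 3ʹ-most exon, and with 3ʹ-most-exon reads alone DDX3X did not pass (adjusted p = 0.702, Fisher's exact test). DHX36, which unwinds G-quadruplexes, had 9, 6 and 0 reads, and by the exact 95% interval its level at 2 h was lower than at 0 h by 1.996-fold or more (adjusted p = 0.0156, Fisher's exact test). With a minimum of 10 reads in the higher library DHX36 was left out. DHX29, which helps the small ribosomal subunit to scan structured leaders, had 9, 11 and 11 reads and DHX34, of nonsense-mediated decay, 1, 0 and 1.

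DDX60, an interferon-inducible antiviral helicase, had 29, 47 and 54 reads, all at 1 pA on the minus strand of chromosome 4 at 169137447. Its log2 ratio at 2 h over 0 h was 0.88 (adjusted p = 0.0489, Fisher's exact test), under the minimum of 1. Its neighbour DDX60L was at 4, 0 and 0 reads. DDX11, a DNA helicase of sister chromatid cohesion, was at 0, 0 and 2 reads, and DDX26B at 0, 3 and 6. Of the 3 genes with a less well defined role, DHX32 had 4, 2 and 1 reads, DHX57 had 0, 0 and 5, and DHX40 had 1, 0 and 3.

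The second comparison asked whether transcripts ended at intronic pAs, which gives a truncated coding sequence, or in the 3ʹ-most exon. The 123 pAs of the family comprised 79 in the 3ʹ-most exon of 41 genes, 33 intronic pAs in 21 genes and 11 upstream-exon pAs in 10 genes, and 3 genes (DDX11, DHX35 and DHX57) were listed with intronic pAs only. Of the 33 intronic pAs, 8, 2 and 25 had reads at 0, 0.5 and 2 h. Of the 33, 23 had reads at 2 h only (69.7%), and 11 of these rested on 1 read. Each of the 33 had a read in at least 1 of these libraries. The shares of listed pAs with reads at a time point are thus partly set by how the list was made. Over all genes 3825, 3945 and 7399 of 11989 intronic pAs had reads at 0, 0.5 and 2 h, and 46.5% had reads at 2 h only. In the same libraries the family's 3ʹ-most-exon pAs with reads numbered 64, 52 and 48 of 79.

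The intronic reads themselves numbered 8, 7 and 52, spread over 6, 2 and 17 genes. They made up 0.342%, 0.283% and 2.75% of the family's reads at 0, 0.5 and 2 h, with exact Clopper-Pearson 95% intervals of 0.148 to 0.673, 0.114 to 0.583 and 2.06 to 3.59. Without DDX24 and DHX33, which have no intronic pA, the shares were 0.939%, 0.928% and 7.10%. Over all genes they were 6.86%, 6.004% and 8.46%. The family's share was thus below that of all genes in each library. Leaving out those 2 genes, a choice made after seeing the data, could only raise the share. Without them the interval at 2 h, 5.35 to 9.21, included the value of all genes. That value still counts genes with no intronic pA, so the comparison is not like with like.

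**Figure D3:**
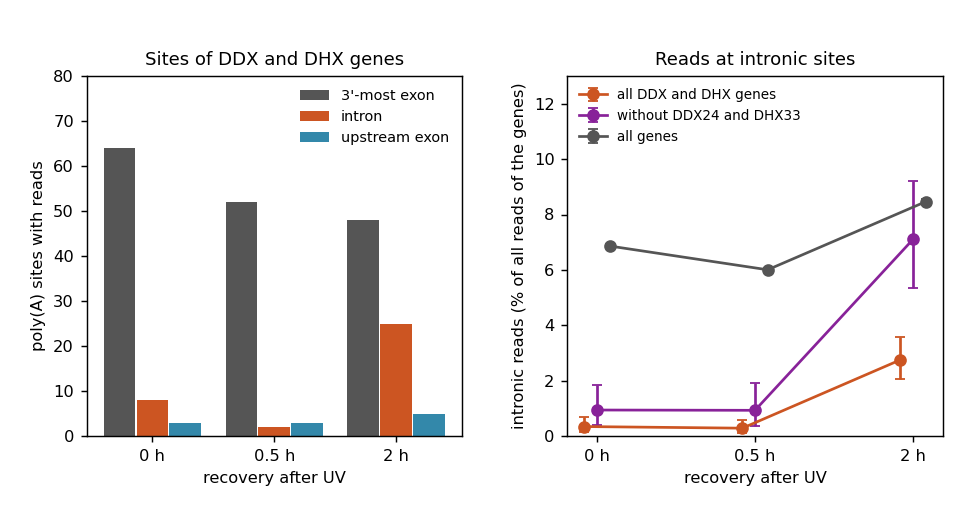
Left, number of pAs of the 44 genes with at least 1 read in each library, by pA type. Right, intronic reads as a percentage of all reads of the genes, with exact 95% intervals, for the 44 genes, for 42 of them without DDX24 and DHX33, and for all genes. The intronic bars stand at 8, 2 and 25 for 0, 0.5 and 2 h, while those of the 3ʹ-most exon were fewest at 2 h.

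Few genes had the reads for a test. A gene was called when the split of reads between introns and the 3ʹ-most exon gave p under 0.05 by Fisher's exact test and the intronic share moved by more than 5 points. None of 6 testable helicase genes was called in the 0–0.5 h window, where the intronic share rose in 6.2% and fell in 3.14% of testable genes. In the 0.5–2 h window 1 of 13 rose, DDX31, and none fell, against 15.7% and 2.02% of all genes. At 2 h over 0 h again DDX31 alone of 16 rose and none fell, against 15.7% and 1.3%.

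For DDX31, 3 of 11 reads at 2 h were intronic (27.3%, exact 95% interval 6.02 to 61.0), against 0 of 61 at 0.5 h (p = 0.0028, adjusted p = 0.0446, Fisher's exact test) and 1 of 67 at 0 h (1.49%, p = 0.0080, adjusted p = 0.0896). The counts behind these shares were 1, 0 and 3 intronic and 66, 61 and 8 3ʹ-most-exon reads at 0, 0.5 and 2 h, so that most of the change in reads was in the 3ʹ-most exon. The 2 h reads stood on the minus strand of chromosome 9 at 135544472 (2 reads) and 135513249 (1 read), 75.6 and 44.4 kb upstream of the most read pA of the 3ʹ-most exon, and the single read at 0 h stood 15.2 kb upstream, at 135484063. The first of these was the farthest upstream of all intronic pAs of the family that could be measured.

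DDX3X showed the most sites at 2 h. It had intronic pAs on the plus strand of chromosome X at 41193906 (3 reads), 41198169 (2 reads) and 41204394 (1 read), 13.5, 9.22 and 2.997 kb upstream of its pA in the 3ʹ-most exon, and upstream-exon pAs at 41200777 (2 reads) and 41205633 (1 read). All of these had 0 reads at 0 and 0.5 h, whereas the pA of the 3ʹ-most exon at 41207391 had 2, 0 and 1 reads. The share of intronic reads was 6 of 7 at 2 h against 0 of 2 at 0 h (p = 0.0833, Fisher's exact test), which did not pass, and the 0.5–2 h window had no reads at 0.5 h to test. With upstream-exon reads counted as intronic, an alternative chosen after seeing the data, DDX3X passed at 2 h over 0 h.

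DDX5 had intronic reads at different pAs at different times. The pA on the minus strand of chromosome 17 at 62498280 had 3 reads at 0.5 h only, while that at 62497614 had 4 at 2 h only and those at 62501472 and 62501888 had 1 each at 2 h. There were 0, 3 and 6 intronic reads beside 18, 14 and 34 in the 3ʹ-most exon at 0, 0.5 and 2 h, and no window passed (p = 0.163 at 2 h over 0 h, Fisher's exact test). The most intronic reads of the family were those of DDX50, the paralog of DDX21, with 0, 4 and 9 at a single pA on the plus strand of chromosome 10 at 70671339, beside 1, 1 and 0 reads in its 3ʹ-most exon. This pA lies 35.02 kb upstream of the 3ʹ-most-exon pA, and no window of DDX50 passed.

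DDX46 had 4 intronic reads at 2 h only, 55.0 kb upstream of its main pA on chromosome 5, of 32 reads (12.5%), and did not pass (p = 0.120 at 2 h over 0 h, Fisher's exact test). DHX57 was seen at 2 h alone, with 3 reads at 39084001 and 2 at 39047987 on the minus strand of chromosome 2. DDX17, the close paralog of DDX5, had 3 intronic pAs with 1 read each at 2 h. DHX15 had reads at 0 h instead, with 3 intronic pAs of 1 read each at 0 h and none later. Of the 33 intronic pAs, 29 belonged to genes with a pA in the 3ʹ-most exon and lay 1.82 to 75.6 kb upstream of the most read one, with a median of 13.5 kb. The median was 17.8 kb for the 20 with reads at 2 h only and 11.8 kb for the other 9. The pAs of a gene are not independent, and the 3 of DHX15, all among the 9, lay at 11.2 to 12.4 kb. The 2 sets came mostly from different genes, and the difference of their medians was not tested.

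**Figure D4:**
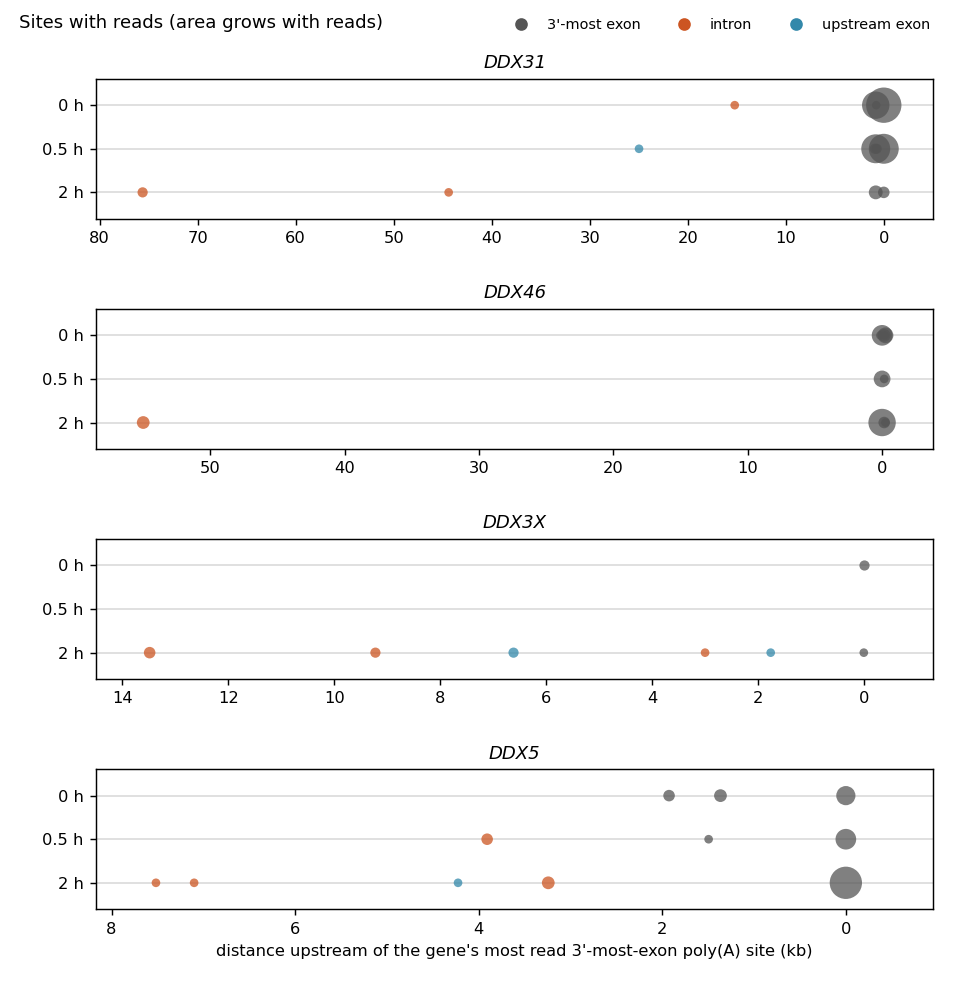
Sites with reads in DDX31, DDX46, DDX3X and DDX5 at 0, 0.5 and 2 h, placed by distance in kb upstream of the most read pA of the 3ʹ-most exon of each gene (at 0), with the area of a point growing with its reads and colours for pA type. Intronic points are mostly in the 2 h rows, and those in introns and upstream exons stand for 1 to 4 reads each.

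Upstream-exon pAs, all 11 in coding sequence, held 6, 4 and 7 reads of the family at 0, 0.5 and 2 h. DDX60L had 3 reads, DHX32 had 2 and DHX38 had 1 at 0 h only. DDX24 had 2 and DDX31 and DHX9 had 1 each at 0.5 h only. DDX3X had 3, DDX47 had 2 and DDX5 and DHX34 had 1 each at 2 h only. No such pA had reads in 2 libraries.

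The third comparison took the 2 most read pAs of a 3ʹ-most exon, ranked over the 3 libraries, and asked whether the balance of proximal (shorter 3ʹUTR) and distal use changed. It applied to 19 genes with 2 or more such pAs, whose 2 pAs lay 36 to 17669 bases apart (median 606), while 22 genes had 1 pA. In the 0–0.5 h window the proximal share rose in 1 of 17 testable genes (DDX56) and fell in 1 (DHX36), against 6.53% and 5.53% of all genes tested. In the 0.5–2 h window it rose in 1 of 12 (DDX18) and fell in none, against 8.3% and 7.13%, and at 2 h over 0 h it rose in 1 of 14 (DDX18) and fell in 1 (DDX5), against 6.75% and 5.79%.

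DDX18, named above for the large subunit, had the smallest adjusted p of these. Its proximal pA on the plus strand of chromosome 2 at 118588967 and its distal pA at 118589948, 981 bases apart, had 4 and 27 reads at 0 h, 2 and 17 at 0.5 h and 15 and 11 at 2 h. The proximal share was 12.9% at 0 h (exact 95% interval 3.63 to 29.8), 10.5% at 0.5 h (1.30 to 33.1) and 57.7% at 2 h (36.9 to 76.6). Fisher's exact test gave p = 0.0017 (adjusted p = 0.0537) for 2 h over 0.5 h and p = 5.65e-04 (adjusted p = 0.0229) for 2 h over 0 h. The total level of DDX18 was not called in any window.

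The other calls rested on fewer reads and did not pass after adjustment. DDX5 used its proximal pA, 1366 bases upstream of the distal one, in 0 of 34 reads at 2 h, against 4 of 15 at 0 h (26.7%, p = 0.0064, adjusted p = 0.116, Fisher's exact test), and in 0 of 13 at 0.5 h. DDX56, a nucleolar helicase of the large subunit, used the proximal of pAs 387 bases apart in 7 of 7 reads at 0.5 h, against 0 of 4 at 0 h (p = 0.0030, adjusted p = 0.0935, Fisher's exact test), and in 2 of 3 at 2 h. DHX36 used the proximal of pAs 36 bases apart in 2 of 6 reads at 0.5 h, against 8 of 8 at 0 h (p = 0.0150, adjusted p = 0.210, Fisher's exact test), and had none at 2 h. DDX51 moved by exactly 5 points, with 116 of 116 reads proximal at 2 h, against 95 of 100 at 0.5 h (p = 0.0201, Fisher's exact test), and was not called.

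**Figure D5:**
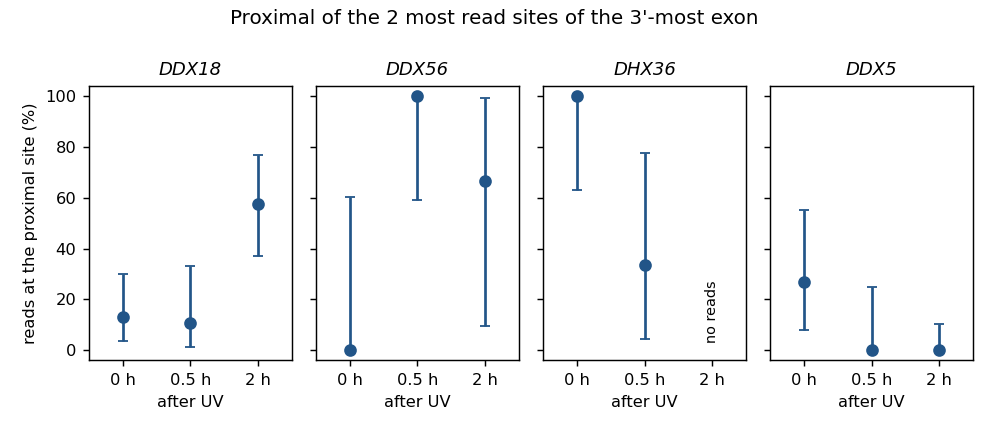
Share of reads at the proximal of the 2 most read pAs of the 3ʹ-most exon at 0, 0.5 and 2 h, with exact 95% intervals, for the 4 genes called in any window. DDX18 rose to 57.7% at 2 h, and the bars of DDX56 and DHX36 are long, since each rests on at most 8 reads.

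For comparison, 15 related helicases without a DDX or DHX symbol and 33 helicase cofactors had rows. Among the related helicases ASCC3, of ribosome quality control and alkylation repair, and SKIV2L2, of the nuclear exosome, rose and AQR, of the spliceosome, fell in the 0.5–2 h window, of 14 tested, and none was called in the other 2 windows. Among the cofactors, with 32 or 33 tested, ALYREF, CASC3 and EIF4G1 fell in the 0–0.5 h window. In the 0.5–2 h window CASC3, EIF4G3 and NKRF rose and GPATCH3 fell, and at 2 h over 0 h EIF4G3 rose and GPATCH3 and TFIP11 fell. Of all genes 2.15%, 5.37% and 4.84% rose and 4.36%, 4.83% and 7.55% fell in the 0–0.5 h window, the 0.5–2 h window and 2 h over 0 h. The intronic share of related helicases rose in 1 (EIF4A1) and fell in 1 (EIF4A2) of 4 testable genes in the 0–0.5 h window. It rose in 1 of 6 (UPF1) in the 0.5–2 h window, where it rose in 15.7% of all genes, and at 2 h over 0 h it rose in 1 (UPF1) and fell in 2 (ASCC3 and EIF4A2) of 7. Among the cofactors it rose in 1 (SF3B1) and fell in 1 (EIF4ENIF1) of 8 in the 0–0.5 h window, and it rose in 4 of 12 (CNOT1, EIF4ENIF1, EIF4G1 and EIF4G2) in the 0.5–2 h window and in 4 of 13 (CNOT1, EIF4G1, EIF4G2 and LSM14A) at 2 h over 0 h, with none lower in either. Over all genes the intronic share rose in 6.2%, 15.7% and 15.7% and fell in 3.14%, 2.02% and 1.3% in these windows. The proximal share fell in EIF4A3 alone of 7 testable related helicases in each window. Among the cofactors it rose in 2 of 17, 1 of 16 and 1 of 14 and fell in 0, 3 and 1 in the 0–0.5 h window, the 0.5–2 h window and 2 h over 0 h. Over all genes the proximal share rose in 6.53%, 8.3% and 6.75% and fell in 5.53%, 7.13% and 5.79% in these windows. These calls of shares rest on p before adjustment. For the intronic share, adjusted p (Fisher's exact test) was under 0.05 in 0, 1 and 2 related helicases and in 0, 1 and 2 cofactors. For the proximal share it was under 0.05 in 0, 0 and 1 related helicases and in no cofactor. The related helicases had intronic shares of 8.92%, 5.45% and 5.58% of their reads at 0, 0.5 and 2 h, and the cofactors 4.90%, 7.77% and 17.5%. These lists differ in reads per gene from the DDX and DHX genes, and no difference between the lists was tested.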

How the data were processed

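Nuclear RNA of RKO cells was profiled by 3ʹREADS with 1 library per time point (0, 0.5 and 2 h). The authors aligned reads with Bowtie2 to hg19, kept those with at least 2 non-genomic As and assigned pAs to genes. CASAVA is also named in the submitters' processing notes, and no versions are given. The deposited values are RPM. All were whole multiples of 1 read, within 4.00e-11 reads, so reads were recovered, 433261, 501838 and 438040 per library, of which the table holds over 99%.

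Analyses ran in Python 3.11.15 (pandas 2.3.3, scipy 1.17.1, numpy 2.4.6) and plots in matplotlib 3.10.9. Fisher's exact tests (two-sided) were run on all genes and adjusted by Benjamini-Hochberg. Intron-APA and 3ʹUTR-APA used the test and thresholds in the methods of the paper, and the test of expression was set for this work. Over all genes, 3ʹUTR-APA was called in 408 genes in the 0–0.5 h window and 476 in the 0.5–2 h window. The paper reports more for RKO, beside which it names the p threshold alone, so its counts were not reproduced. Ratio intervals are exact and conditional on the sum. Intervals cover counting error only, as PCR copies were not told apart. Tests were run on simulated data with known changes. These were planted in genes with at least 20 reads, which 8 of the 44 had in each library, and with counting error only. Changes of shares were planted only in genes whose share lay away from both extremes. Recovery of changes in genes with fewer reads, or with intronic shares near 0, was not tested. The named genes are those called in any window, the 10 most read, the 5 with most intronic reads, and those with upstream-exon pAs or at 0 in a library. Members and lists were chosen with earlier results of these data known. Roles are from general knowledge. A related helicase is not reported here and was left out of its list. Symbols were matched to RefSeq names (44 of 44). No pA sequence is shown, since no genome of this build was used here.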

Additional observations from a re-analysis of the deposited data

How the results depend on the processing

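No result changed direction under any alternative. Judged by a relative expression difference beyond 1 or -1 with no p, intron-APA calls numbered 6, 12 and 16 helicase genes in the 0–0.5 h window, the 0.5–2 h window and 2 h over 0 h, against 0, 1 and 1. With each intronic pA alone 2 were called in the 0.5–2 h window (DDX31, and DDX5 with a fall). After adjustment 0 stayed for intron-APA at 2 h over 0 h, and 0, 0 and 1 (DDX18) for 3ʹUTR-APA, where a minimum of 10 reads left 0 in the 0–0.5 h window. With upstream-exon pAs counted as intronic, chosen after seeing the data, 2 were called at 2 h over 0 h (DDX31 and DDX3X). With no minimum ratio 4 genes changed expression in the 0–0.5 h window and 10 at 2 h over 0 h. With a minimum of 10 reads in the higher library, expression at 2 h over 0 h lost DHX36 and gained DHX9. Without DDX24 and DHX33, also chosen after seeing the data, intronic shares were 0.939%, 0.928% and 7.10%. These shares lay outside the intervals of the main shares. Of the counts of called helicase genes under the alternatives, 33 stayed within 1.5 times the main count and 12 moved. The 22 calls of single genes in a window were each set against several alternatives. Counted once per call and alternative, 97 were kept and 10 lost, 3 of them because the gene fell under the minimum of reads. Scaling by the median ratio of well-read genes raised log2 ratios by 0.10 (0–0.5 h), 0.0055 (0.5–2 h) and 0.09 (2 h over 0 h). Depth limits these results, since 24 of 44 genes had under 30 reads and there are no replicates. No paired analysis was possible because each time point has 1 library.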
